A study of Mus musculus with 9 samples.

Results

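The genes described here are 10 of the 54532 in the deposited table, taken by their gene symbols: the metallothioneins Mt1 and Mt2, the superoxide dismutases Sod1 and Sod2, catalase (Cat), the glutathione peroxidases Gpx1, Gpx3 and Gpx4, haem oxygenase Hmox1 and the quinone reductase Nqo1. All 10 were found and all 10 passed the filter on low values, set at 0.5 FPKM on average across all 9 libraries. FPKM is the number of sequenced fragments per kilobase of gene, scaled to the size of the library. RNA was measured in the right ventricle of C57BL/6 mice with a wild-type genotype, in 3 groups of 3 libraries. Sham mice had the control operation, VO (volume overload) mice had the fistula operation, and CsA mice had the fistula operation and were injected with cyclosporin A, a drug that blocks the phosphatase calcineurin. The labels name no drug for Sham and VO. Postnatal day 7 stands in the labels both as the stage of the mice and as the day of the operation. The time from the operation to the harvest, the dose of the drug, an injection in the other groups and the number of mice behind a library are not in the sources used. Nothing says that libraries of a group came from separate mice. The p-values below thus only set each difference against the spread between these libraries, and that spread may be technical.

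Metallothioneins are small proteins rich in cysteine that hold zinc and copper, and their genes are switched on by metals through the factor MTF-1 and by glucocorticoid hormone. Superoxide dismutases turn superoxide into hydrogen peroxide, which catalase and the glutathione peroxidases remove, so the enzymes act one after the other against oxidants made in the beating heart. Hmox1 breaks down haem, Nqo1 reduces quinones, and both are classical targets of the oxidant-responsive factor Nrf2.

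Mt1 and Mt2 lie side by side on chromosome 8 (GRCm38) on the forward strand, Mt2 at chr8:94172664-94173568 and Mt1 at chr8:94179082-94180327, with 5513 bases between the end of Mt2 and the start of Mt1. Their coding sequences are shown because Mt1 and Mt2 had the lowest VO minus Sham values among the members and are close relatives. Both come from the GENCODE M21 transcripts Mt1-201 and Mt2-201, each in 3 exons, with the codons for cysteine in capitals.
Mt1 coding sequence: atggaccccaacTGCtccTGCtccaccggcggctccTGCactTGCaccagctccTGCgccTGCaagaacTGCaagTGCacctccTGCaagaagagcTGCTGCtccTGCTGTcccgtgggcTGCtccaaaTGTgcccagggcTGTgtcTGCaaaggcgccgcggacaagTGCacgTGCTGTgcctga
Mt2 coding sequence: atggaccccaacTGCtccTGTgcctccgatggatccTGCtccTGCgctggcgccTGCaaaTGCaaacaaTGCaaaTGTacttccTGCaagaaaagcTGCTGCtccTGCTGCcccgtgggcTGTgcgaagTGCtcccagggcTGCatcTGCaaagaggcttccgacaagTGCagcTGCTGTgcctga
Each has 186 bases and 20 cysteine codons, all 20 at the same positions in both. The sequences are identical at 148 of 186 bases (79.6%), and the longest identical stretch is 20 bases. No stretch of 50 bases in Mt1 occurs in any other annotated gene, Mt2 included.

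The 250 bases before the transcription start in RefSeq (GRCm38.p6) are shown for both genes. Mt1 and Mt2 ranked the libraries of Sham in the same order, and within CsA both were highest in CsA 2. Capitals mark the core of the metal response element, TGCACNC or TGCGCNC, on either strand.
Mt1, chr8:94178839-94179088, forward strand: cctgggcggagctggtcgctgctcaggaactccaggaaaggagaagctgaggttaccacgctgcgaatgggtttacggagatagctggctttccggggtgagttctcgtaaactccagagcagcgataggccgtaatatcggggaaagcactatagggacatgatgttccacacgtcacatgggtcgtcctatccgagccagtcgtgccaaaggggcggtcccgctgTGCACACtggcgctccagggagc
Mt2, chr8:94172368-94172617, forward strand: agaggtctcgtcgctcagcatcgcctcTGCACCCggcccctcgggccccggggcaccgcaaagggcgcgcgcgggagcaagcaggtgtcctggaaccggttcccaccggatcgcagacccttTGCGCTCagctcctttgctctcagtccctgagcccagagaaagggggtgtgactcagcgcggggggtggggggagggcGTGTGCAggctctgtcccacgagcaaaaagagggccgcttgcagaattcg
In the full window of 300 bases, which adds 50 bases after the start, Mt1 held 3 matches and Mt2 held 4. Of these, 1 in Mt1 and 3 in Mt2 lie before the start and are shown. The windows end at chr8:94179138 for Mt1 and chr8:94172667 for Mt2. The bases from there to the coding starts, at chr8:94179311 and chr8:94172848, were not searched. Of 32851 windows of this length, 25.7% held at least 1 match, 1.97% held 3 or more and 0.52% held 4 or more. The windows of Sod1, Sod2, Cat, Gpx1, Gpx3, Gpx4 and Nqo1 held none. The core of the antioxidant response element, TGACNNNGC on either strand, was found once each in the windows of Mt2 and Sod1, in no other member's window, and in 12.4% of all windows. Hmox1 was not among the windows. The RefSeq starts differ by some bases from the gene starts in the deposited table, and a match is a string of letters, not a measured binding site.

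The libraries held 12046288 to 15986747 fragments assigned to genes. VO 3 stood apart: mitochondrially encoded genes took 11.01% of its fragments against 22.18% to 26.34% in the other 8 libraries, and 17003 genes were above 0 against 19619 to 20479. The 8 ventricular cardiomyocyte markers summed to between 10055 and 17194 FPKM in every library. The 6 atrial markers summed to 593, 8.21 and 622 FPKM in Sham 1 to 3. The sums were 25.4, 14.8 and 16.0 FPKM for the VO libraries and 33.0, 6.12 and 162 for the CsA libraries. Sham 1, Sham 3 and CsA 3 thus had the highest atrial sums. Values without these libraries are given for Mt1, Mt2, Gpx3, Sod3 and the called genes of the pathway lists. In such values Sham 2 alone stands for Sham, and Sham 2 was the lowest Sham library for Mt1, Mt2 and Gpx3. Among the called genes it was also the lowest for Sod3, Ddit4, Klf9, Cebpb, Nos3, Keap1 and Nfe2l1, but not for Per1, Slc48a1 and Selenot. In bulk tissue, fewer cells of a type and less RNA per cell cannot be told apart.

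None of the 10 members passed the test in any of the 3 comparisons, a limma fit over all 13477 tested genes with Benjamini-Hochberg adjustment at 0.05. In the same fit 4.76% of all tested genes were called between VO and Sham, and 0% between CsA and VO and between CsA and Sham. At an unadjusted p under 0.05, 3 of the 10 members differed between VO and Sham, where 29.3% of all tested genes did. The 3 were Mt1, Mt2 and Gpx3, each lower in VO. No member had an unadjusted p under 0.05 between CsA and VO (16.5%, or 2219 genes, of those tested) or between CsA and Sham (1.48%, 200 genes). When the recovered fragment counts were fitted with limma's voom, 1011, 0 and 0 genes were called in these comparisons, again with no member. The members' median difference was -0.19 (VO minus Sham), 0.25 (CsA minus VO) and -0.02 (CsA minus Sham) on the log2(FPKM + 1) scale, beside a median of 0.00 over all tested genes in each. These comparisons share libraries: VO enters VO minus Sham and CsA minus VO, and Sham enters VO minus Sham and CsA minus Sham.

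**Figure D1:**
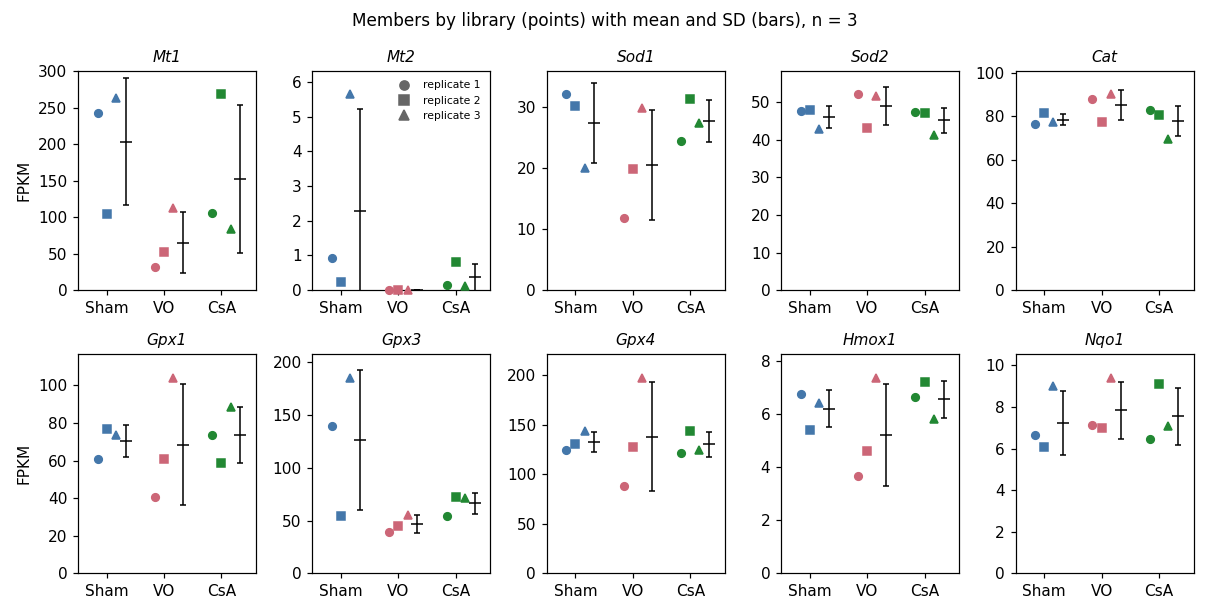
FPKM (y axis, from 0, scale set per gene) of the 10 genes in each library, with circles, squares and triangles for replicates 1, 2 and 3 of Sham, VO and CsA; black bars are the mean and SD of 3 libraries, cut at 0 for Mt2. Mt1 spans 31.9 to 268 FPKM and Gpx3 38.9 to 186, whereas Cat stays between 69.6 and 90.0 and Sod2 between 41.3 and 52.1.

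Mt1 was the most variable of the abundant members. Its level was 243, 104 and 263 FPKM in Sham 1 to 3, 31.9, 51.7 and 112 in the VO libraries, and 105, 268 and 83.6 in the CsA libraries. Sham 1, Sham 3 and CsA 2 were high, VO 1 and VO 2 were low, and the groups overlapped, since VO 3 was above Sham 2. The means were 204 ± 86.6 FPKM in Sham, 65.2 ± 41.7 in VO and 152 ± 101 in CsA (SD, n = 3 each). VO minus Sham was -1.71 ± 0.562 (SE) on the log2(FPKM + 1) scale, with a 95% interval from -2.96 to -0.45 and an adjusted p of 0.0886 in limma. Of all tested genes, 0.364% had a difference as low as this or lower. CsA minus VO was 1.21 ± 0.562, with an interval from -0.05 to 2.47 and an adjusted p of 0.318. CsA minus Sham was -0.50 ± 0.562 with an adjusted p of 1.

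Single libraries decided the side of the threshold for Mt1. Without VO 3 the difference between VO and Sham was -2.19 with an adjusted p of 0.0407, in a fit that called 2032 genes. Without Sham 1, Sham 3 and CsA 3, with Sham 2 alone left in Sham, it was -0.86. A fit that held the atrial markers as a covariate gave -1.58. In CsA 2, Mt1 was at 268 FPKM, its highest level, and the atrial sum was 6.12 FPKM, the lowest of all 9. The part of atrial tissue in the level of Mt1 was not tested beyond these values.

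Few fragments were counted for Mt2 beside its neighbour, and their number may depend on how fragments were counted, as described below. Sham 1 to 3 held 8, 2 and 43 fragments of Mt2 (0.933, 0.245 and 5.64 FPKM), the VO libraries held 0, 0 and 0, and the CsA libraries held 1, 6 and 1 (0.143, 0.825 and 0.130 FPKM). The same libraries held 633 to 4417 fragments of Mt1. All VO libraries were thus below all libraries of the other groups, and Mt2 was the only member with comparisons in which the groups did not overlap, VO against Sham and CsA against VO. Non-overlap was found for 33.1% of tested genes between VO and Sham, for 21.2% between CsA and VO and for 9.74% between CsA and Sham, where 0 members had it. Against a floor of 3 fragments per VO library (0.337 FPKM on average), the Sham mean was at least 6.74-fold higher, and Sham 3 supplied 43 of the 53 Sham fragments. Without Sham 3 the bound was 1.75-fold and the fitted difference -0.63. The floor covers counting error only. Sham 2, CsA 1 and CsA 3 each lay under a floor of 3 fragments, so that at this depth they cannot be told from VO. The fitted difference between VO and Sham, -1.33 ± 0.504, depends on the pseudocount and is no bound. Leaving out Sham 1, Sham 3 and CsA 3, with Sham 2 alone left in Sham, moved the fitted difference to -0.32. Holding the atrial markers fixed moved it to -0.87. The adjusted p was 0.119 for VO minus Sham, 0.707 for CsA minus VO and 1 for CsA minus Sham. With Mt2 placed at its bound, the members' median was -0.19 for VO minus Sham and 0.15 for CsA minus VO.

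Mt2 and Mt1 had the same order of libraries within Sham (3, 1, 2 from high to low), and within CsA both were highest in CsA 2. CsA 1 and CsA 3 held 1 fragment of Mt2 each, so only the scaling to library size set their order in FPKM. With that order counted, 8.19% of the other tested genes ranked the libraries of Sham and CsA as Mt2 did. Of the 588 exonic bases of Mt2, 432 (73.5%) lie under the antisense gene Gm45774 (chr8:94170748-94173412), which leaves 156 bases to Mt2 alone. Of the 50-base stretches of Mt2, 45.85% also occur in Gm45774, on either strand. Gm45774 itself had 6 fragments over the 9 libraries. Whether the counting used strand is not known from the sources used here, so the low level of Mt2 is uncertain. The 6 adipocyte markers summed to 0.222, 0.0309 and 5.56 FPKM in Sham 1 to 3 and to 0 in all VO and CsA libraries, and Sham 3 had both the highest adipocyte sum and the most Mt2. Adipoq, Plin1 and the other adipocyte markers were at 0 in CsA 2, which held 6 fragments of Mt2. Their part in the Sham values of Mt2 was not tested.

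The superoxide dismutases act in different places, Sod1 mainly in the cytosol and Sod2 in mitochondria. Sod1 (chr16:90220754-90226329) was at 32.0, 30.1 and 19.9 FPKM in Sham 1 to 3, at 11.8, 19.8 and 29.7 across VO and at 24.5, 31.2 and 27.4 across CsA. VO 1 was the lowest library and Sham 1 the highest, and the groups overlapped. The difference VO minus Sham was -0.46 ± 0.302 (adjusted p 0.334, interval from -1.14 to 0.21) and CsA minus VO was 0.50 ± 0.302 (adjusted p 0.420). For Sod1, VO minus Sham moved to -0.14 without VO 1 and to -0.77 without VO 3 (adjusted p 0.749 and 0.0697). Sod2 (chr17:13006846-13040063) was at 47.6, 47.9 and 42.8 FPKM in Sham, 52.1, 43.1 and 51.6 in VO and 47.3, 47.0 and 41.3 in CsA. No group stood apart, and the pooled SD within groups was 0.119 on the log2 scale, a spread that only 8.34% of tested genes matched or undercut. The 95% interval for VO minus Sham ran from -0.25 to 0.41. Of the 50-base stretches of Sod2, 21.0% also occur in other annotated genes, so reads there could be split or lost.

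Catalase removes hydrogen peroxide in peroxisomes. Cat (chr2:103453849-103485160, reverse strand) was at 76.4, 81.4 and 77.2 FPKM in Sham 1 to 3, at 87.7, 77.3 and 90.0 in VO and at 82.7, 80.5 and 69.6 in CsA. VO 1 and VO 3 were above every other library, but VO 2 was inside the Sham range. The VO minus Sham value was 0.11 ± 0.150, with an interval from -0.22 to 0.45 and an adjusted p of 0.650. The spread within groups was the smallest among the members, 0.105 on the log2 scale, against a median of 0.240 over all tested genes and 0.843 for Mt1.

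The glutathione peroxidases are selenoproteins that reduce peroxides with glutathione. Gpx1 is the abundant cytosolic enzyme, Gpx3 is secreted, and Gpx4 reduces lipid peroxides in membranes. Gpx3 (chr11:54902453-54910377) was at 139, 54.1 and 186 FPKM in Sham 1 to 3, at 38.9, 44.8 and 55.7 in VO and at 54.8, 72.6 and 71.3 in CsA. Sham 1 and Sham 3 were far above all other libraries, while Sham 2 was inside the VO range. The means were 126 ± 66.7 FPKM in Sham, 46.5 ± 8.56 in VO and 66.2 ± 9.93 in CsA (SD, n = 3 each). VO minus Sham was -1.27 ± 0.389, with an interval from -2.14 to -0.39 and an adjusted p of 0.0747. CsA minus VO was 0.51 ± 0.389 (adjusted p 0.528) and CsA minus Sham -0.76 ± 0.389 (adjusted p 1).

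The Sham libraries in which Gpx3 was high were those with atrial markers, at summed levels of 593 and 622 FPKM against 8.21 in Sham 2. Without Sham 1, Sham 3 and CsA 3, with Sham 2 alone left in Sham, the difference between VO and Sham in Gpx3 was -0.23. With the atrial markers as a covariate the difference was -0.67. Without Sham 2 it was -1.78 with an adjusted p of 0.0397, in a fit that called 69 genes. In CsA 3, which had an atrial sum of 162 FPKM, Gpx3 was no higher than in CsA 2. The part of atrial tissue in the Sham level of Gpx3 was not tested beyond these values.

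**Figure D2:**
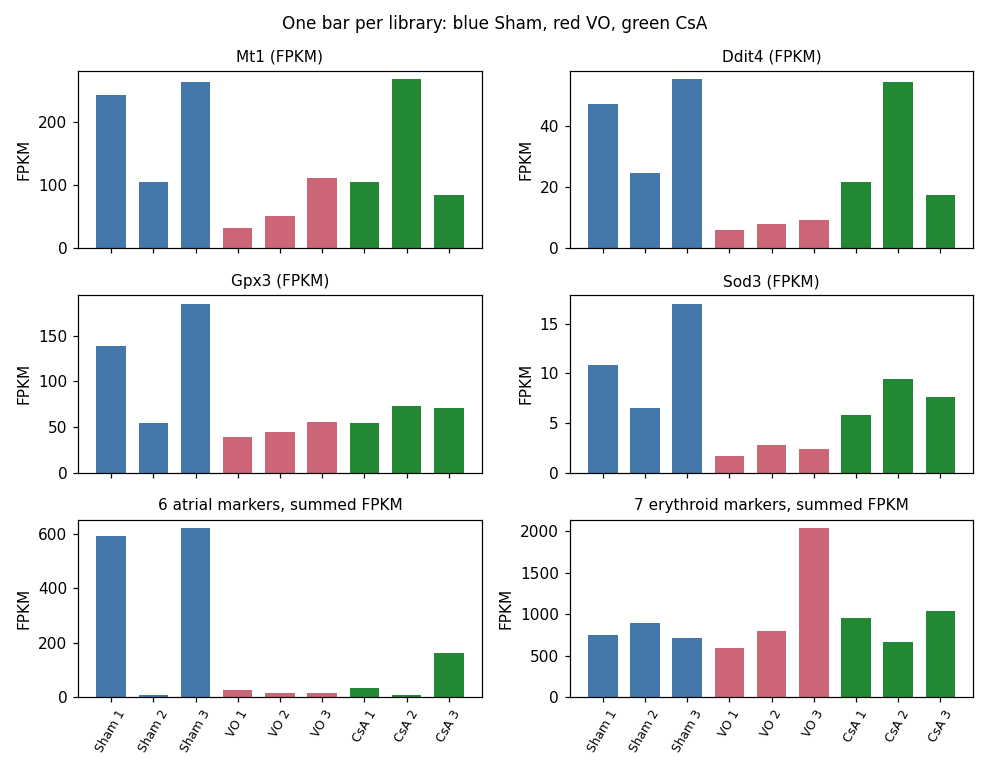
Level in each library (x axis, 1 bar per library, y axis FPKM from 0) of Mt1, Ddit4, Gpx3, Sod3 and the summed atrial and erythroid markers. Gpx3 and the atrial sum are high together in Sham 1 and Sham 3, whereas Mt1 is also high in CsA 2 (268 FPKM), where the atrial sum is 6.12.

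Gpx1 (chr9:108338903-108340343) was at 60.8, 76.9 and 73.7 FPKM in Sham 1 to 3, at 40.9, 60.6 and 104 in VO and at 73.8, 58.9 and 88.6 in CsA. VO 1 was the lowest and VO 3 the highest of all 9 libraries, so the VO group spanned both others. In VO minus Sham it differed by -0.14 ± 0.309, with an interval from -0.83 to 0.56 and an adjusted p of 0.806. The 7 erythroid markers found summed to 593, 791 and 2041 FPKM for VO 1 to 3. Their range was from 710 to 897 for Sham and from 667 to 1041 for CsA. Gpx1 had the same order of libraries within VO and within CsA, but not within Sham. There the erythroid sum was lowest in Sham 3 and Gpx1 was lowest in Sham 1. With the erythroid markers as a covariate, VO minus Sham in Gpx1 was -0.42 ± 0.149 (adjusted p 0.106). The part of red cells in the level of Gpx1 was not tested beyond these values.

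Gpx4 (chr10:80047166-80056439) was at 124, 131 and 143 FPKM in Sham 1 to 3, at 88.4, 128 and 198 in VO and at 121, 144 and 125 in CsA. VO 1 was again the lowest and VO 3 the highest of all libraries. In VO minus Sham it differed by -0.02 ± 0.265, with an interval from -0.61 to 0.58 and an adjusted p of 0.972. The level is uncertain, since 34.7% of the 50-base stretches of Gpx4 also occur in the copy Gpx4-ps2, listed at 35.2 to 82.0 FPKM.

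Hmox1 and Nqo1, the classical Nrf2 targets among the members, were low. Hmox1 (chr8:75093621-75100589) was at 6.77, 5.42 and 6.43 FPKM in Sham 1 to 3, at 3.69, 4.60 and 7.39 in VO and at 6.65, 7.20 and 5.83 in CsA. VO 1 and VO 2 were below every Sham and CsA library, and VO 3 was above them all. VO minus Sham was -0.25 ± 0.207 (interval from -0.71 to 0.21, adjusted p 0.451) and CsA minus VO was 0.32 ± 0.207 (adjusted p 0.452). For Hmox1, the first of these moved to -0.068 without VO 1 and to -0.49 without VO 3 (adjusted p 0.846 and 0.0532). Nqo1 (chr8:107388225-107403206, reverse strand) was at 6.67, 6.07 and 8.99 FPKM in Sham, 7.11, 6.99 and 9.41 in VO and 6.48, 9.11 and 7.06 in CsA. Each group held 1 library near 9 FPKM and the rest near 6 to 7, with VO minus Sham at 0.11 ± 0.188 (adjusted p 0.744).

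**Figure D3:**
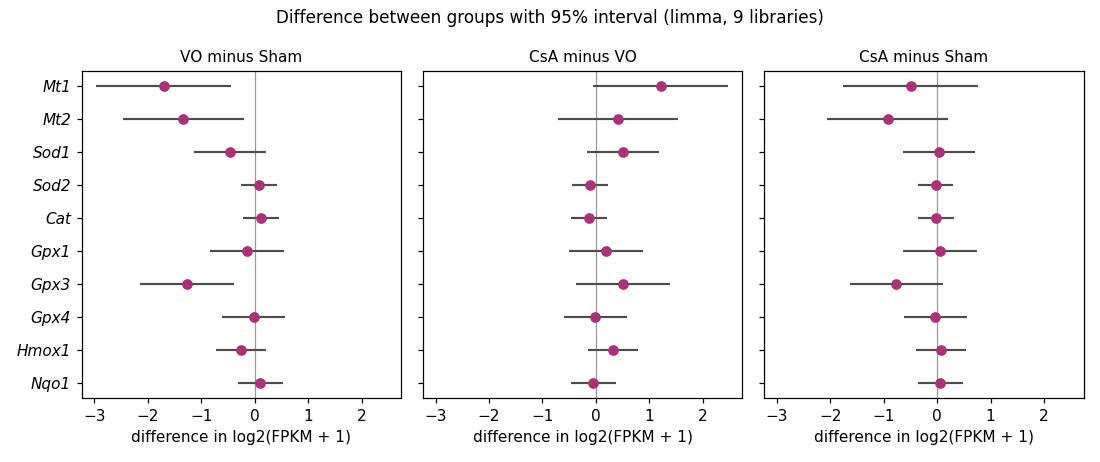
Difference in log2(FPKM + 1) between groups (x axis) for each gene (y axis), with points for the limma estimate over 9 libraries and lines for its 95% interval, in panels for VO minus Sham, CsA minus VO and CsA minus Sham. The intervals of Mt1, Mt2 and Gpx3 lie below 0 in VO minus Sham, and every interval in both CsA panels includes 0.

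The libraries of VO differed among themselves in most members. VO 3 was the highest VO library in 8 of the 10 genes, all but Sod2 and Mt2, where 41.9% of all tested genes were highest in VO 3. VO 1 was the lowest VO library in 6 (Mt1, Sod1, Gpx1, Gpx3, Gpx4 and Hmox1), against 35.1% of all tested genes. In CsA, CsA 2 was the highest library in 7 members (38.2% of tested genes). VO 3 is the library with the low mitochondrial share and the high erythroid sum, and the part of either was not tested.

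In the order of mean levels, Mt1 came first in Sham and CsA, but in VO the means of Gpx4 (138 FPKM), Cat (85.0) and Gpx1 (68.6) were above it. The order holds for FPKM only, which divides by a gene length of 10008 bases for Sod2, 3970 for Sod1 and 1246 for Mt1. In fragments summed over Sham, Sod2 (19164) was above Mt1 (10475). In every group Mt1 and Gpx4 overlapped in range, so their order is not fixed by these libraries. In Sham, the neighbours from Mt1 down through Gpx4, Gpx3 and Cat to Gpx1 each overlapped in range with the next. Gpx1, Sod2, Sod1 and Nqo1 in Sham had separate ranges, at means of 70.5, 46.1, 27.4 and 7.24 FPKM. Nqo1 and Hmox1 overlapped in all 3 groups. Mt2 was last in each group, although in Sham 3 (5.64 FPKM) it was above Hmox1 in Sham 2 (5.42).

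The protein-coding genes whose profile over the 9 libraries was most like that of a member were found by Pearson's r of log2(FPKM + 1), given as a description. The libraries share the groups, so r holds group differences as well as differences within groups. For Mt1 they were Ramp2 (0.988), Gstm1 (0.986) and Cyth1 (0.983), with Gstm1, a glutathione transferase, at 57.8, 32.0 and 64.4 FPKM in Sham, 13.4, 21.8 and 28.0 in VO and 32.4, 70.9 and 26.3 in CsA. For Sod1 they were Cox5b (0.992), 2210016L21Rik (0.984) and Ndufs5 (0.978), of which Cox5b and Ndufs5 encode parts of the mitochondrial respiratory chain. For Sod2 the closest was Uqcrc2 (0.923), also of the respiratory chain, then Zfp354a (0.914) and Pdss2 (0.911).

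For Gpx1 they were Oaf (0.963), Zbtb7c (0.960) and Hba-a2 (0.947), an alpha globin gene at 20.0, 58.0 and 192 FPKM in VO 1 to 3. For Gpx3 they were Fuz (0.977), Lmod1 (0.974) and Serpinf1 (0.967), and for Gpx4 they were Mrps24 (0.980), Fam192a (0.973) and the mitochondrial thioredoxin Txn2 (0.966). Cat was most like Nudt11 (0.939), Tmem135 (0.933) and Ypel5 (0.930), and Hmox1 most like Wdpcp (0.980), Tmem120a (0.962) and Surf1 (0.957). Nqo1 was most like Stk11ip (0.931), Pth1r (0.913) and Gadd45b (0.907). Mt2, with 0 in 3 libraries, was most like Crybb1 (0.952), Smad6 (0.947) and Spns1 (0.944).

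Of the other genes of the same enzyme families, Sod3, the extracellular superoxide dismutase, fell in VO. Its level was 10.9, 6.46 and 17.1 FPKM in Sham 1 to 3, 1.68, 2.74 and 2.41 in VO and 5.81, 9.45 and 7.64 in CsA. Every VO library was below every Sham and CsA library. VO minus Sham was -1.85 ± 0.301 with an adjusted p of 0.0382, and CsA minus VO was 1.39 ± 0.301 with an adjusted p of 0.204. Without Sham 1, Sham 3 and CsA 3, with Sham 2 alone left in Sham, the difference between VO and Sham was -1.20. The 6 smooth muscle and pericyte markers summed to 699, 1013 and 706 FPKM in Sham 1 to 3, 544, 538 and 700 in VO and 784, 692 and 792 in CsA. All 5 tested markers of this list were below 0 in VO minus Sham, at a median of -0.53, and 1 was called. Their part in the level of Sod3 was not tested. Sod3 was the only call among the 5 tested of 8 listed genes, where 4.76% of all tested genes were called. VO and Sham did not overlap in 3 of the 5, where 33.1% of all tested genes had no overlap. The 8 were Sod3, Gpx2, Gpx5, Gpx6, Gpx7, Gpx8, Hmox2 and Nqo2. Gpx8, a peroxidase of the endoplasmic reticulum, was at 0.41 ± 0.208 (adjusted p 0.224) and Gpx7 at -0.43 ± 0.272 (adjusted p 0.314), and the median of the 5 was -0.08.

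Metal handling genes held no call in VO minus Sham: 0 of the 25 tested of 27 listed passed in limma (4.76% of all tested genes did). At an unadjusted p under 0.05 there were 5 of the 25, against 29.3% of all tested genes. Of the 25, 17 were above and 8 below 0, at a median of 0.16. The closest was the zinc transporter Slc30a5, at 6.09 ± 0.419 FPKM in Sham, 9.22 ± 0.671 in VO and 6.82 ± 1.02 in CsA (SD, n = 3 each) (VO minus Sham 0.53 ± 0.139, adjusted p 0.0547). The zinc transporter Slc39a13 was at -0.64 ± 0.183 (adjusted p 0.0646) and the copper chaperone Cox17 at 0.47 ± 0.145 (adjusted p 0.0753). The libraries of VO and Sham did not overlap in these 3 genes, nor in 9 of the 25 in all, where 33.1% of all tested genes had no overlap.

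Among Nrf2 and its classical targets, 0 of 28 tested genes rose and 2 fell in VO against Sham. Of all tested genes, 4.76% were called in either direction. In the list, 18 of the 28 were below 0, at a median of -0.14. The 2 that fell were Nfe2l1, a factor related to Nrf2, and Keap1, which holds Nrf2 for breakdown. Nfe2l1 was at 70.1, 58.3 and 71.9 FPKM in Sham, 38.2, 37.3 and 38.9 in VO and 50.7, 66.8 and 46.3 in CsA (VO minus Sham -0.79 ± 0.174, adjusted p 0.0408). Keap1 was at 9.71, 8.07 and 9.67 FPKM in Sham, 5.54, 6.16 and 5.24 in VO and 6.63, 8.70 and 6.93 in CsA (-0.61 ± 0.145, adjusted p 0.0466). In both genes all VO libraries were below all others. VO and Sham did not overlap in 12 of the 28, where 33.1% of all tested genes had no overlap. The targets Cbr1 (-0.73 ± 0.190, adjusted p 0.0536) and Maff (-0.83 ± 0.233, adjusted p 0.0615), a small Maf partner, were just outside the threshold.

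Of the 21 thioredoxin, peroxiredoxin and glutaredoxin genes, 0 passed in either direction in limma, at a median of 0.14. At an unadjusted p under 0.05 there were 3 of the 21, against 29.3% of all tested genes. The smallest p belonged to Prdx4 (0.65 ± 0.229, adjusted p 0.104), a peroxiredoxin of the endoplasmic reticulum. Of the 17 genes of selenium use and other selenoproteins, 1 rose and 0 fell (4.76% of all tested genes called), at a median of 0.25. This was Selenot, a selenoprotein of the endoplasmic reticulum, at 69.9, 80.8 and 84.3 FPKM in Sham, 168, 120 and 158 in VO and 112, 80.1 and 86.9 in CsA (0.91 ± 0.199, adjusted p 0.0408). All its VO libraries were above all others. Selenof was at 0.64 ± 0.181 (adjusted p 0.0626), Sephs2, which makes the selenium donor, at 0.56 ± 0.167 (adjusted p 0.0715) and Selenoo at -0.64 ± 0.183 (adjusted p 0.0658). VO and Sham did not overlap in these 3 genes either, nor in 8 of the 17 in all, where 33.1% of all tested genes had no overlap. At an unadjusted p under 0.05 there were 8 of the 17.

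Of the 16 tested genes of haem and iron, 0 rose and 1 fell (4.76% of all tested genes called), at a median of -0.03. The haem transporter Slc48a1 was at 26.1, 26.6 and 31.6 FPKM in Sham, 16.1, 17.7 and 17.3 in VO and 20.4, 26.4 and 22.8 in CsA (-0.68 ± 0.149, adjusted p 0.0408). The haem exporter Flvcr1 was at 0.57 ± 0.161 (adjusted p 0.0624). Of the 13 tested sources of oxidants, 0 rose and 1 fell (4.76% of all tested genes called), at a median of -0.26. Nos3, the endothelial nitric oxide synthase, was at 9.34, 7.33 and 8.46 FPKM in Sham, 3.51, 5.18 and 2.95 in VO and 5.68, 8.26 and 7.15 in CsA (-0.96 ± 0.197, adjusted p 0.0403). Beside Nos3, the 6 endothelial markers summed to 258 to 290 FPKM in Sham, 193 to 213 in VO and 266 to 309 in CsA. The sum does not stand for each marker: 3 were above and 3 below 0 in VO minus Sham, at a median of -0.16. Their part in the level of Nos3 was not tested.

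Glucocorticoid-responsive genes, listed because metallothioneins belong to that response, held 4 calls among 14 tested genes (4.76% of all tested genes called). All 4 fell in VO against Sham, 12 of the 14 were below 0, and the median was -0.90. Ddit4, an inhibitor of mTORC1, was at 47.1, 24.5 and 55.2 FPKM in Sham, 5.79, 7.73 and 9.06 in VO and 21.6, 54.4 and 17.3 in CsA (-2.28 ± 0.419, adjusted p 0.0382). The order of the libraries within each of the 3 groups was that of Mt1, an order that 1.35% of the other tested genes had, and that no other gene of the list had. The clock gene Per1 (-1.78 ± 0.239, adjusted p 0.0382), the factor Cebpb (-1.93 ± 0.334, adjusted p 0.0382) and the factor Klf9 (-1.75 ± 0.382, adjusted p 0.0408) also fell. Between CsA and VO, 13 of the 14 were above 0 at a median of 0.40 and 0 passed in limma. At an unadjusted p under 0.05 there were 5 of the 14, against 16.5% of all tested genes. Ddit4 was at 1.75 ± 0.419 and Per1 at 1.27 ± 0.239 (adjusted p 0.204 each in limma).

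**Figure D4:**
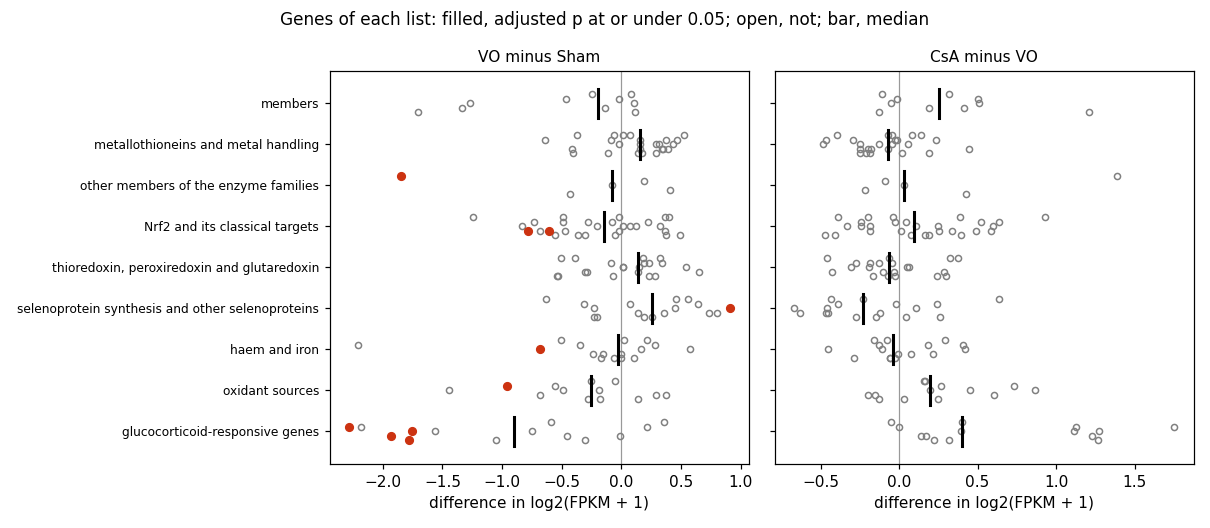
Difference in log2(FPKM + 1) (x axis) of each tested gene in the members and in 8 lists (y axis), for VO minus Sham and CsA minus VO; filled points have an adjusted p at or under 0.05 and black bars are medians. Filled points are found only in VO minus Sham, 10 in all, of which 9 lie below 0, and the members' row has none.

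No gene of the 8 lists was called in CsA against VO or in CsA against Sham. The 10 called list genes kept their direction in all 25 alternative settings of the fit, but their adjusted p was at or under 0.05 in only 117 of 250 values. Their sizes changed as well. The range over the settings was -0.69 to -0.13 for Keap1, -1.15 to -0.38 for Nos3 and -0.73 to -0.34 for Slc48a1. It was 0.42 to 1.05 for Selenot, -0.88 to -0.52 for Nfe2l1, -2.09 to -1.04 for Per1 and -2.20 to -1.19 for Cebpb. For Sod3, Klf9 and Ddit4 it was -2.20 to -1.20, -2.015 to -1.23 and -2.63 to -1.60. A correction for GC content left 0 of the 10 called, as did the atrial covariate. Without Sham 1, Sham 3 and CsA 3, with Sham 2 alone left in Sham, the differences were -1.77 for Per1, -1.73 for Cebpb and -1.60 for Ddit4. They were -1.23 for Klf9, -1.20 for Sod3, -0.80 for Nos3 and -0.61 for Slc48a1. For Nfe2l1, Keap1 and Selenot they were -0.60, -0.45 and 0.86. Single libraries also decided these calls: without Sham 1, Sham 3, VO 1, CsA 1 or CsA 3, each left out alone, 0 of the 10 were called, at adjusted p-values from 0.0526 to 0.196. Without Sham 2 there were 3 calls, without VO 2 there were 7, and without VO 3 or CsA 2 there were 10.

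**Figure D5:**
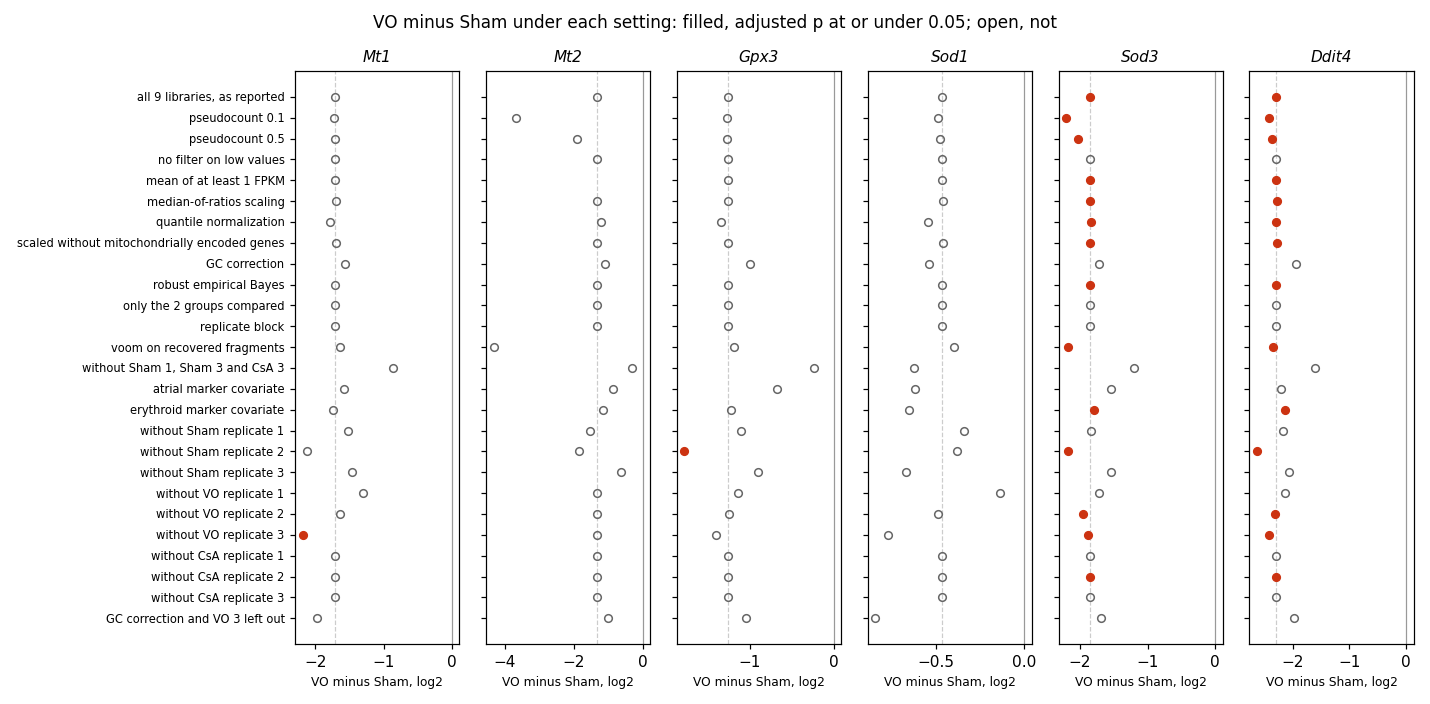
VO minus Sham on a log2 scale (x axis, scale set per gene) for Mt1, Mt2, Gpx3, Sod1, Sod3 and Ddit4 under each setting of the fit (y axis), with filled points where the adjusted p is at or under 0.05, dashed lines at the value reported and no point for Mt2 where the filter dropped it. Every point lies below 0, Mt1 and Gpx3 are filled once each, and leaving out Sham 1, Sham 3 and CsA 3 moves Gpx3 to -0.23.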

How the data were processed

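Right ventricular RNA was sequenced in 9 libraries, 3 each of Sham, VO and CsA, grouped by the treatment in the labels. Trizol was used for the extraction, and 1 µg of total RNA went into each NEBNext Ultra library, per the labels' protocols. The authors computed FPKM for each gene and library in the deposited table, and all its sample columns were used. The submitters' processing notes name GRCm38 and, without roles, the tools GATK 3.7, featureCounts 1.5.0-p3, HISAT2 2.0.5, DESeq2 1.20.0 and StringTie 1.3.3b. Neither annotation release nor strand setting is given in the sources used here.

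FPKM times gene length gave whole fragments in every library for 100% of values, within 0.1 of a whole number. Libraries held 12046288 to 15986747 such fragments. No replicate pair agreed within sampling noise: chi-square per degree of freedom was 11.66 to 26.93 for pairs of one group without VO 3, and 185.09 and 135.87 for VO 3 with VO 1 and VO 2. The floor of 3 fragments covers counting error only, and the 95% intervals come from the spread between libraries in the limma fit.

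Differences were tested on log2(FPKM + 1), which understates the change of low genes, over the 13477 genes that averaged 0.5 FPKM or more. All 9 libraries entered 1 fit in limma 3.58.1 (R 4.3.3) with a mean-variance trend and no covariate. P-values are two-sided, adjusted by Benjamini-Hochberg over all tested genes, at 0.05. The fit was tested on simulated data.

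Named are the 10 members, the called genes of 8 pathway lists and up to 4 genes per list with the smallest p, and the 3 protein-coding genes most alike each member. The members and lists were chosen with earlier results of these data known. Markers of 10 cell types were summed per library. Shared bases, coding sequences and GC content came from GENCODE M21 (GRCm38), and promoter windows from RefSeq. The GC correction removed a loess trend (span 0.3, degree 1) from each library. Alternatives were other pseudocounts (0.1 and 0.5), filters (none, or 1 FPKM), scalings, GC correction, robust fitting, 2 groups alone, a replicate block, voom, marker covariates and libraries left out. GC correction together with leaving out VO 3 was chosen after seeing the data. Figures were drawn with matplotlib 3.10.9.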

Additional observations from a re-analysis of the deposited data

How the results depend on the processing

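Over 25 alternative settings, 30 pairs of member and comparison gave 747 values; 2 passed the threshold and 53 differed in sign from a main value that was itself not called. In VO minus Sham, Mt1, Mt2, Sod1, Cat, Gpx3 and Hmox1 kept their sign in every setting run. The replicate numbers share no animal or batch in the labels, and libraries of the same number did not deviate together (r from -0.4 to 0.237). With the replicate block 1 gene was called in VO minus Sham, against 642. The mean of 1 FPKM dropped Mt2. No scaling moved the median of all genes by 0.1. The causes of the changes below were not tested. Among the members only Mt2 is limited by depth, at 0 to 43 fragments a library, and its counting is uncertain besides.

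The count of called genes in VO minus Sham was 0 with no filter, 0 after GC correction, 0 with only the 2 groups, 1011 with voom, 3 without Sham 1, Sham 3 and CsA 3, 0 with the atrial covariate and 1 with GC correction and VO 3 left out. Leaving out 1 library at a time gave 0 to 2032. In CsA minus VO it was 1 with GC correction and VO 3 left out, and 0 to 1 with 1 library left out. In CsA minus Sham it was 3 without Sham 1, Sham 3 and CsA 3, 1 with the atrial covariate, and 0 to 3 with 1 library left out.

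Log2 values that differed in sign follow. With GC correction, VO minus Sham was -0.18 for Sod2, 0.18 for Gpx1 and 0.43 for Gpx4, CsA minus VO was 0.037 for Sod2 and 0.0052 for Nqo1, and CsA minus Sham was 0.14 for Gpx4. With GC correction and VO 3 left out, VO minus Sham was -0.28 for Sod2, 0.22 for Gpx4 and -0.13 for Nqo1, CsA minus VO was 0.14 for Sod2 and 0.14 for Nqo1, and CsA minus Sham was 0.14 for Gpx4. With voom, Gpx4 was 0.068 in VO minus Sham. Gpx4 in CsA minus VO was 0.0054 with the atrial covariate, 0.034 with the erythroid covariate, 0.055 with quantile normalization, 0.0050 without mitochondrially encoded genes and 0.016 without Sham 1, Sham 3 and CsA 3. In CsA minus Sham, Sod1 was -0.070 with the atrial covariate, and Sod1, Gpx1 and Hmox1 were -0.10, -0.15 and -0.0012 with the erythroid covariate. Cat was 0.011 with quantile normalization and 0.0063 without mitochondrially encoded genes. Without Sham 1, Sham 3 and CsA 3, CsA minus Sham was 0.68 for Mt1, 0.21 for Mt2, -0.12 for Sod1, 0.0027 for Cat, -0.22 for Gpx1, 0.22 for Gpx3 and 0.016 for Gpx4.

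With each library left out in turn, VO minus Sham ran from -0.49 to 0.18 for Gpx1, -0.31 to 0.26 for Gpx4 and -0.018 to 0.25 for Nqo1. CsA minus VO ran from -0.13 to 0.54 for Gpx1, -0.29 to 0.28 for Gpx4 and -0.18 to 0.075 for Nqo1. CsA minus Sham ran from -0.17 to 0.16 for Sod1, -0.081 to 0.034 for Sod2, -0.064 to 0.058 for Cat, -0.089 to 0.20 for Gpx1, -0.11 to 0.027 for Gpx4, -0.012 to 0.14 for Hmox1 and -0.070 to 0.20 for Nqo1.

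Of the 10 called list genes in VO minus Sham, 250 values kept their direction and 133 had an adjusted p above 0.05.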

Other observations

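Markers of further cell types were summed in the same libraries. Macrophage markers (8 genes) summed to 141 to 167 FPKM in Sham, 82.9 to 171 in VO and 123 to 166 in CsA, and fibroblast markers (6 genes) to 589 to 727, 714 to 731 and 637 to 704. Neutrophil markers (7 genes) were at 1.49 to 5.53 FPKM in Sham, 5.15 to 25.7 in VO, with the highest sum in VO 3, and 1.60 to 8.56 in CsA. Liver markers (5 genes) stayed at or under 3.74 FPKM in every library, with the highest sum also in VO 3. Of the tested genes of these 4 lists, 0 were called in limma in any comparison, with 4 at an unadjusted p under 0.05 in VO minus Sham. The endothelial list held 1 call among 6 tested genes in VO minus Sham, with 3 above 0 and 3 below. This was the receptor Tie1 (-0.84 ± 0.186, adjusted p 0.0408 in limma). The smooth muscle and pericyte list held 1 call among 5, all 5 below 0. This was Myh11, the smooth muscle myosin (-0.98 ± 0.222, adjusted p 0.0427 in limma). Tie1 and Myh11 were not followed through the alternative settings. The atrial and erythroid lists held 0 calls in limma in any comparison, with 2 and 0 genes at an unadjusted p under 0.05 in VO minus Sham. Of all tested genes, 4.76% were called in VO minus Sham and 29.3% had an unadjusted p under 0.05.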
